A study of Mus musculus with 13 samples.

Results

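The 10 genes examined here are markers of mural cells, the pericytes and smooth muscle cells that wrap blood vessels and collecting lymphatics. They were taken by symbol, with 6 contractile and cytoskeletal genes (Acta2, Tagln, Myh11, Cnn1, Des and Lmod1) and 4 genes typical of pericytes (Rgs5, Cspg4, Kcnj8 and Abcc9). All 10 were found among the 49315 gene identifiers of the deposited count tables, and all 10 passed the filter on low counts in both comparisons below.

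The RNA came from intact tumour-draining lymph nodes (tdLN) and intact tumours, all from female mice bearing B16F10, a pigmented mouse melanoma line. By the protocol, every mouse carried Foxp3eGFP-Cre-ERT2, a tamoxifen-activated Cre recombinase expressed from Foxp3, the gene that marks regulatory T cells. Foxp3ΔJag1 mice were fl/fl for Jag1, the gene of the Notch ligand Jagged-1. The Foxp3Ctrl mice are WT in their genotype label and fl/wt in the protocol, so the controls may carry a single floxed allele. All mice received 5 tamoxifen doses (0.1 mg per gram body weight) at 6 to 8 weeks of age, the controls included. After 9 days without the drug, 200000 tumour cells in matrigel were placed in the skin of the left flank, at an age of at most 11 weeks. Counts were used from 3 nodes of each genotype and from 3 Foxp3Ctrl tumours, and the tumours came from the same mice as the Foxp3Ctrl nodes by their library names. The 4 Foxp3ΔJag1 tumours in the labels were not analysed here.

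Smooth muscle cells contract by sliding smooth muscle myosin along actin filaments, and calponin, transgelin and leiomodin bind, steady or build those filaments. Pericytes sit on capillaries inside the basement membrane, are drawn there by PDGF-B from the endothelium, and carry an ATP-sensitive potassium channel that couples metabolism to vessel tone. Transcription of the contractile genes is driven by serum response factor, which binds the CArG box, together with myocardin-family coactivators, while Notch signalling through RBPJ is a known input to mural cell differentiation. In lymph nodes, mural cells surround arterioles and high endothelial venules, and fibroblastic reticular cells also make desmin and smooth muscle actin.

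Total counts lay between 32117478 and 44540888 per library, so that 1 count was worth between 0.0225 and 0.0311 CPM, the unit that scales each count to its library's total. All libraries carry batch 1. Positions are on GRCm38, from the GENCODE M21 annotation. The targeted gene, Jag1, was at 23.2 ± 1.21 CPM in the 3 control nodes and at 24.1 ± 3.58 CPM (SD) in the 3 Foxp3ΔJag1 nodes (edgeR adjusted p = 0.984), and Foxp3-expressing cells are only a part of a node. Lymphocyte markers summed to between 2899 and 3071 CPM in nodes and to between 16.01 and 26.8 CPM in tumours, where Cd79a was at 0.708 to 0.747 CPM. Foxp3Ctrl node 3 stood apart through epithelial genes, with 120.7 CPM summed over 5 luminal markers against 6.91 to 32.4 CPM in the other nodes. In bulk samples, fewer cells of a type and less RNA per cell cannot be told apart.

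Promoter sequences are given for Acta2, because its ratios to Myh11 and Tagln differed between tumours and nodes, and for Kcnj8 and Abcc9, because their products form a single channel and the genes lie 16247 bases apart. The windows are from RefSeq, build GRCm38.p6, and were listed for 8 of the 10 genes, all but Tagln and Myh11. Each line runs 5′ to 3′ on the gene's strand from 250 bases before the start of transcription to 30 bases into the transcript, and capitals mark motif matches.
Acta2, chr19:34255344-34255623, minus strand: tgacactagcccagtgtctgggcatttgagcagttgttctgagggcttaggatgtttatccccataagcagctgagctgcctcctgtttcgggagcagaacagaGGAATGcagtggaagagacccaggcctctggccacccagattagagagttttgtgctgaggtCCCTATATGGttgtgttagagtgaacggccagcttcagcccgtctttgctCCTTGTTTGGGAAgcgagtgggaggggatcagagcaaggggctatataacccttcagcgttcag
Kcnj8, chr6:142571585-142571864, minus strand: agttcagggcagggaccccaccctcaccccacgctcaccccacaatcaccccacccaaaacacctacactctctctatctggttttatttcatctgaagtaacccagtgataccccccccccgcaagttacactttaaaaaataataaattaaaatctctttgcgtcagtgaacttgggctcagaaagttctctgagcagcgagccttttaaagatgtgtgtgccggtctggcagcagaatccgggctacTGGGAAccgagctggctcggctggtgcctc
Abcc9, chr6:142702245-142702524, minus strand: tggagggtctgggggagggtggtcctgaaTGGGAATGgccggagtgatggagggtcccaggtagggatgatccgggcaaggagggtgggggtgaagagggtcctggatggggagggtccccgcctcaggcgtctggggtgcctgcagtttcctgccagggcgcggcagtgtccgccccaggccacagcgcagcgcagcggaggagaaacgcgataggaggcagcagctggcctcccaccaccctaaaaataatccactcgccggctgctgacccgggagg

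The motifs were searched on both strands of the full 300-base windows. They were the CArG box, the same box with 1 inner G or C allowed, the RBPJ core TGGGAA, and the MCAT core CATTCC, which TEAD factors bind and whose reverse complement is GGAATG. The Acta2 window held CCCTATATGG from 84 to 75 and CCTTGTTTGG from 34 to 25 bases before its start, both boxes with 1 inner G or C, and the RBPJ core overlapped the second. It also held the reverse MCAT core from 146 to 141 bases before the start. Abcc9 held TGGGAA overlapping by 4 bases with the reverse MCAT core, and Kcnj8 held TGGGAA at the start itself. The strict CArG box was in none of the 8 windows and in 1.63% of all 32851 windows. Tagln and Myh11 had no window, so these counts say nothing of them. The box with 1 inner G or C was in 1 of 8 and in 8.50% of all, TGGGAA in 3 of 8 and in 25.6% of all, and CATTCC in 3 of 8 and in 14.7% of all. These matches describe letters in a window and no binding was measured.

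Levels can be compared between genes only per length, and here CPM was divided by the kilobases of annotated exon. Over the 6 nodes, Rgs5, a GTPase-activating brake on G-protein signalling and a marker of pericytes, was highest at 24.98 ± 4.93 CPM per kb (SD, n = 6). Des, the intermediate filament desmin, followed at 21.6 ± 2.38 and Acta2, smooth muscle alpha-actin, at 16.9 ± 4.34 CPM per kb. The ranges of these neighbours overlapped, while every node had Acta2 above Kcnj8. Kcnj8, Tagln, Abcc9 and Myh11 formed a middle group between 7.09 ± 1.93 and 4.97 ± 0.0959 CPM per kb, each overlapping the next. Lmod1, Cnn1 and Cspg4 lay far below, at 0.510 ± 0.171, 0.355 ± 0.311 and 0.122 ± 0.0415 CPM per kb, and no node had Lmod1 within the range of Myh11. In the 3 tumours Acta2 (15.3 ± 8.98 CPM per kb) and Rgs5 (14.6 ± 3.96) led with overlapping ranges, Rgs5 did not overlap Des (4.74 ± 4.71), and Cspg4 stood above Cnn1 and Lmod1 at 1.27 ± 0.0988 CPM per kb.

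**Figure D1:**
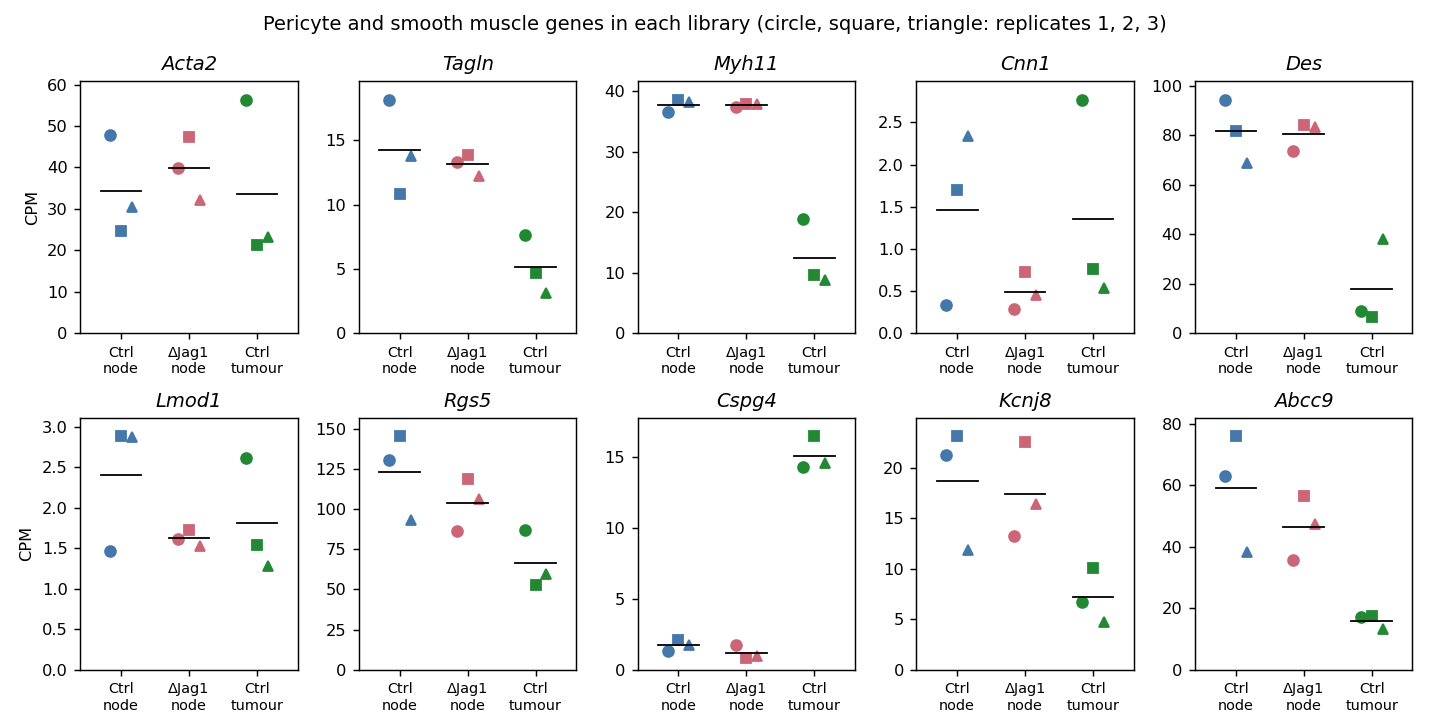
CPM of the 10 genes in each library, 1 panel per gene with its own axis from 0. Blue, red and green mark Foxp3Ctrl nodes, Foxp3ΔJag1 nodes and Foxp3Ctrl tumours, shapes mark replicates and the bar is the mean of 3. The node groups overlap in all 10 panels, Myh11 lies between 36.5 and 38.6 CPM in every node, and Cspg4 is the single gene with all tumours above all nodes.

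The first comparison asked whether mural cell genes differed between draining nodes of Foxp3ΔJag1 and Foxp3Ctrl mice. None of the 10 genes passed edgeR's quasi-likelihood test at an FDR of 0.05, and 7 of 18440 genes did (0.038%). At an unadjusted p under 0.05, Cnn1 alone of the 10 passed, against 3.15% of all genes. DESeq2 and limma-voom also called none of the 10. The groups overlapped for all 10 genes, where 7.29% of all genes had groups that did not overlap. A total of 9 of the 10 log2 fold changes (Foxp3ΔJag1 minus Foxp3Ctrl) were below 0, with a median of -0.21 against -0.0045 over all genes, of which 9436 of 18440 were below 0. The count was 7 of 10 without Foxp3Ctrl node 1, without Foxp3Ctrl node 2 or without Foxp3ΔJag1 node 1, with medians of -0.14, -0.13 and -0.15. Without Foxp3Ctrl node 3 or Foxp3ΔJag1 node 2 it stayed at 9 of 10, with medians of -0.43 and -0.38.

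Among the contractile genes, Myh11, the smooth muscle myosin heavy chain (chromosome 16, 14194535 to 14291372), had the narrowest spread. It was at 36.5, 38.6 and 38.2 CPM in Foxp3Ctrl nodes 1 to 3 and at 37.4, 38.0 and 37.9 CPM in Foxp3ΔJag1 nodes 1 to 3. The highest node was 1.06-fold above the lowest, and of the 5097 genes within 2-fold of its mean, 62 (1.22%) had a smaller spread. From 1260 to 1690 counts a node, the 95% exact Clopper-Pearson intervals of all 6 nodes overlapped. That of the lowest, Foxp3Ctrl node 1, was 34.6 to 38.6 CPM, and that of the highest, Foxp3Ctrl node 2, was 36.8 to 40.5 CPM. Its log2 fold change was -0.02 ± 0.07 (SE, edgeR adjusted p = 0.978).

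Acta2 (chromosome 19, 34241090 to 34255590) was at 47.8, 24.6 and 30.5 CPM in the Foxp3Ctrl nodes and at 39.8, 47.4 and 32.02 CPM in the Foxp3ΔJag1 nodes. Foxp3Ctrl node 1 and Foxp3ΔJag1 node 2 were close together at the top, and the log2 fold change was 0.19 ± 0.28 (SE). Tagln, the actin-binding transgelin (chromosome 9, 45929619 to 45936058), was at 18.2, 10.8 and 13.8 CPM in the Foxp3Ctrl nodes and at 13.4, 13.9 and 12.2 CPM in the Foxp3ΔJag1 nodes. The Foxp3ΔJag1 nodes lay within the range of the controls, with a log2 fold change of -0.14 ± 0.18 (SE). Of its 1988 exon bases, Tagln shares 1241 with the antisense gene Gm48529, which was at a mean of 3.50 CPM in control nodes and 4.003 CPM in Foxp3ΔJag1 nodes. It shares 108 with another antisense gene, Pcsk7, at a mean of 59.8 CPM in control nodes and 60.8 CPM in Foxp3ΔJag1 nodes. The strand setting of the counts is not given in the sources used here, a limit that also holds for Tagln levels per kb and for ratios to Tagln. Des (chromosome 1, 75360329 to 75368579) was at 94.4, 81.6 and 68.7 CPM in the Foxp3Ctrl nodes and at 73.6, 84.1 and 83.2 CPM in the Foxp3ΔJag1 nodes. Here too the Foxp3ΔJag1 nodes lay inside the control range, with a log2 fold change of -0.05 ± 0.13 (SE).

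Cnn1, which encodes calponin 1 (chromosome 9, 22099216 to 22109630), varied most between nodes. It was at 0.330, 1.70 and 2.34 CPM in the Foxp3Ctrl nodes, from 12, 73 and 83 counts, and at 0.286, 0.724 and 0.449 CPM in the Foxp3ΔJag1 nodes, from 11, 24 and 20 counts. The 95% exact Clopper-Pearson interval of Foxp3Ctrl node 1 was 0.171 to 0.577 CPM, which holds 2 of the 3 Foxp3ΔJag1 values, while that of Foxp3Ctrl node 3 was 1.86 to 2.90 CPM. Intervals cover counting error only. The log2 fold change was -1.60 ± 0.67 (SE), with an unadjusted p of 0.0453 (edgeR adjusted p = 0.953). Calponin 1 is also made by the myoepithelial cells of glands. The 5 myoepithelial and basal epithelial markers Krt5, Krt14, Krt17, Trp63 and Oxtr summed to 1.40, 4.62 and 15.03 CPM in Foxp3Ctrl nodes 1 to 3 and to between 0.696 and 1.30 CPM in Foxp3ΔJag1 nodes, where Krt5 was at 0 in nodes 1 and 3 and Krt14 at 0 in nodes 2 and 3. The Foxp3Ctrl nodes thus had the same order for Cnn1 and for the sum of these markers, though Trp63 alone was at 0.936, 0.743 and 2.23 CPM. The sum of the 5 luminal markers had that order too, at 12.2, 32.4 and 120.7 CPM. In the Foxp3ΔJag1 nodes neither sum had the order of Cnn1. There the myoepithelial and basal markers summed to 1.30, 1.15 and 0.696 CPM in nodes 1 to 3, and the luminal markers to 8.49, 6.91 and 10.4 CPM. The part of either marker set in the Cnn1 result was not tested. Without Foxp3Ctrl node 3 the log2 fold change of Cnn1 was -1.15, with an adjusted p of 0.451.

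Lmod1, the actin-nucleating leiomodin of smooth muscle (chromosome 1, 135324807 to 135368065), was at 1.46, 2.88 and 2.88 CPM in the Foxp3Ctrl nodes. It was at 1.61, 1.72 and 1.53 CPM in the Foxp3ΔJag1 nodes, all above Foxp3Ctrl node 1 and below the other 2 controls. Its log2 fold change was -0.59 ± 0.28 (SE, edgeR adjusted p = 0.953).

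The 4 pericyte genes all had log2 fold changes below 0, with a median of -0.32, and none passed. Without Foxp3Ctrl node 2 or Foxp3ΔJag1 node 1, 3 of 4 were below 0, with medians of -0.13 and -0.18, and without Foxp3Ctrl node 3 the median was -0.53. Rgs5 (chromosome 1, 169655501 to 169695813) was at 131, 145 and 93.4 CPM in the Foxp3Ctrl nodes and at 86.7, 119 and 106 CPM in the Foxp3ΔJag1 nodes. Its log2 fold change was -0.27 ± 0.20 (SE), and Foxp3Ctrl node 3 lay among the Foxp3ΔJag1 values. Cspg4, the NG2 proteoglycan (chromosome 9, 56865033 to 56899870), was at 1.35, 2.11 and 1.75 CPM in the Foxp3Ctrl nodes and at 1.74, 0.844 and 0.965 CPM in the Foxp3ΔJag1 nodes, from 28 to 91 counts a node. Its log2 fold change was -0.58 ± 0.32 (SE), and Foxp3ΔJag1 node 1 lay within the control range.

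Kcnj8 encodes Kir6.1, the pore of the vascular ATP-sensitive potassium channel (chromosome 6, 142564837 to 142571614), and was at 21.3, 23.1 and 11.8 CPM in the Foxp3Ctrl nodes and at 13.3, 22.6 and 16.4 CPM in the Foxp3ΔJag1 nodes. Abcc9 encodes SUR2, its regulatory subunit (chromosome 6, 142587862 to 142702315), and was at 63.1, 76.0 and 38.2 CPM in the Foxp3Ctrl nodes and at 35.9, 56.5 and 47.4 CPM in the Foxp3ΔJag1 nodes. Both subunits were highest in node 2 and lowest in node 3 of the controls, and highest in node 2 and lowest in node 1 of the Foxp3ΔJag1 mice. The log2 fold changes were -0.14 ± 0.32 and -0.37 ± 0.32 (SE). Foxp3Ctrl node 3 and Foxp3ΔJag1 node 1 were also the lowest of their groups for Rgs5, but not for Cspg4. Both had the highest adipocyte marker sum of their group, whose part here was not tested. Per kb, the ratio of Abcc9 to Kcnj8 was 0.901, 1.000 and 0.983 in the Foxp3Ctrl nodes and 0.823, 0.762 and 0.880 in the Foxp3ΔJag1 nodes, so the groups did not overlap for the ratio. This ratio was chosen after its values were seen, and 3 nodes against 3 allow an exact two-sided permutation p of 0.1 at the smallest.

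Blood endothelial genes also varied between nodes. The geometric mean of 8 blood endothelial markers was 60.5 ± 15.5 CPM in the 3 control nodes and 54.9 ± 2.41 CPM (SD) in the 3 Foxp3ΔJag1 nodes, and all 8 had log2 fold changes below 0, with a median of -0.16. Without Foxp3Ctrl node 2, 2 of these 8 were below 0 and their median was 0.07, while without Foxp3Ctrl node 1 or node 3 it was -0.29. All 5 lymphatic endothelial markers tested were also below 0, with a median of -0.41. Of 9 fibroblast and reticular cell markers, 7 were below 0 and 2 above, with a median of -0.22. Of 7 lymphocyte markers, 3 were below 0, with a median of 0.09. No gene of these lists was called. Whether endothelial or fibroblast content moved the pericyte genes was not tested.

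The wider lists gave the same count of calls, none, in the nodes. Of 22 other contractile genes, 14 had log2 fold changes below 0 with a median of -0.04, which lay between -0.09 and 0.01 with single libraries left out, and 2 had an unadjusted p under 0.05. These were Vcl, the adhesion protein vinculin, with -0.28 ± 0.11 (SE), and Itga8, an integrin chain of contractile cells, with -0.50 ± 0.21 (SE). Of 17 other pericyte genes tested, 16 were below 0 with a median of -0.29, and 12 of 17 without Foxp3Ctrl node 2, with a median of -0.12. Their smallest p-values belonged to Colec11, a collectin, with -0.72 ± 0.31 (SE), and Gucy1a1, a subunit of the nitric oxide receptor guanylate cyclase, with -0.47 ± 0.22 (SE). DESeq2 and limma-voom also called none of these 2 lists. No smooth muscle regulator of 9 had an unadjusted p under 0.05, and Foxc1 and Tbx2, which come nearest, were at -0.41 ± 0.34 and 0.20 ± 0.21 (SE). Among 13 recruitment signals, Agtr1a, the angiotensin II type 1a receptor, was at 3.28, 5.55 and 8.54 CPM in the Foxp3Ctrl nodes and at 1.28, 2.17 and 2.25 CPM in the Foxp3ΔJag1 nodes. Its groups did not overlap, as for 7.29% of all genes. The Foxp3Ctrl nodes had the same order for the sum of the 5 luminal markers, at 12.2, 32.4 and 120.7 CPM. The Foxp3ΔJag1 nodes did not, with sums of 8.49, 6.91 and 10.4 CPM in nodes 1 to 3. The part of these markers in the Agtr1a result was not tested. The log2 fold change of Agtr1a was -1.62 ± 0.36 (SE), with an unadjusted p of 0.00198 (edgeR adjusted p = 0.953), where 3.15% of all genes had an unadjusted p under 0.05. Pdgfc, a PDGF-family ligand, was at -0.60 ± 0.37 (SE) on the same scale.

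**Figure D2:**
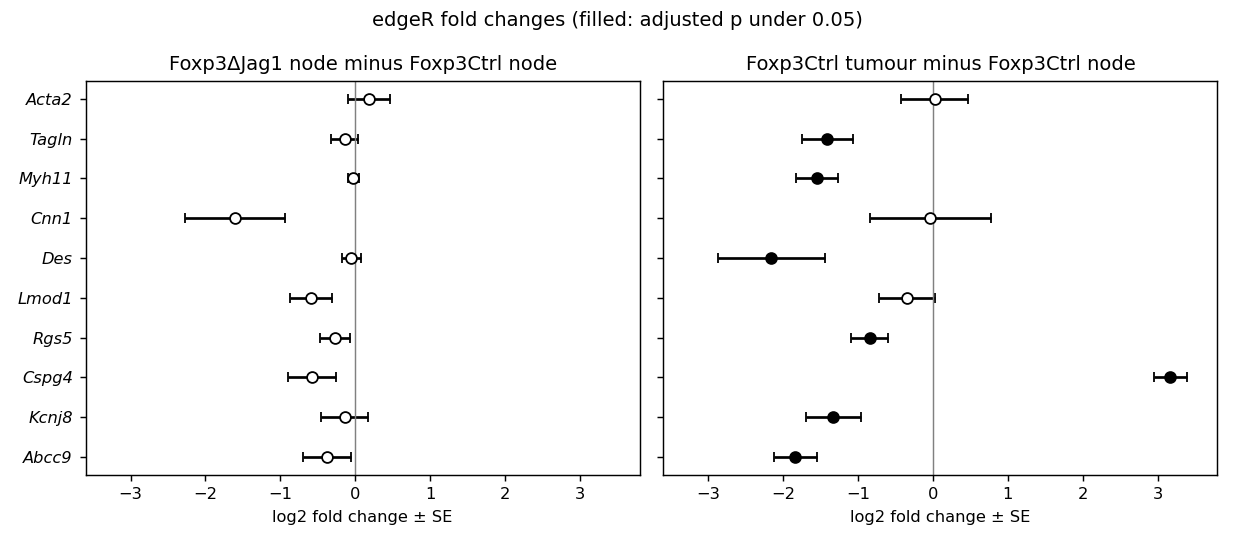
edgeR log2 fold changes with standard errors for the 10 genes, Foxp3ΔJag1 minus Foxp3Ctrl node on the left and Foxp3Ctrl tumour minus node on the right, on the same axis. Filled points have an adjusted p under 0.05: none on the left, and 7 on the right, of which Cspg4 (3.17) is the only one above 0. Both panels use the same 3 Foxp3Ctrl nodes.

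The second comparison set Foxp3Ctrl tumours against the nodes of the same mice, and it shares its node libraries with the first. Of the 10 genes, 6 fell in tumours and 1 rose. Abcc9, Myh11, Tagln, Kcnj8, Des and Rgs5 were lower by between 1.80-fold and 4.46-fold, Cspg4 was 9.01-fold higher, and Acta2, Cnn1 and Lmod1 did not pass. These tissues differ in most genes: 73.2% of 18566 genes tested were called, 37.6% lower and 35.6% higher, so 7 of 10 is near the background. The groups did not overlap for the same 7 genes, against 77.9% of all genes (41.5% with tumours lower and 36.5% with tumours higher). The median log2 fold change (tumour minus node) of the 10 was -1.09, against -0.05 over all genes. Without tumour 3 the count was 6 of 10, with Rgs5 lost, and over single left-out libraries it lay between 5 and 7.

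Of the contractile genes, Myh11 was at 18.9, 9.67 and 8.78 CPM in tumours 1 to 3, all below the lowest node at 36.5 CPM. It fell by 1.55 ± 0.28 (SE) on the log2 scale (edgeR adjusted p = 0.00177). Tagln was at 7.62, 4.69 and 3.14 CPM, again below every node, and fell by 1.41 ± 0.34 (SE, edgeR adjusted p = 0.00604). Tumour 1 was the highest tumour for both.

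Acta2 did not follow them. It was at 56.4, 21.3 and 23.1 CPM in tumours 1 to 3 against 47.8, 24.6 and 30.5 CPM in the nodes of the same mice, with a log2 fold change of 0.02 ± 0.44 (SE, edgeR adjusted p = 0.964). Tumour 1 was above, and tumours 2 and 3 were below, every node. The sign of this change varied with the scaling: it was -0.029 with library size alone. Per kb, the ratio of Acta2 to Myh11 was 4.52, 2.20 and 2.76 in the nodes and 10.3, 7.64 and 9.11 in the tumours, and the ratio to Tagln was 2.38, 2.06 and 2.01 in the nodes and 6.70, 4.12 and 6.65 in the tumours. All tumours exceeded all nodes in both ratios, which were chosen after their values were seen. Smooth muscle actin is also made by activated fibroblasts. The sum of 9 fibroblast and reticular cell markers was 4453, 2196 and 1534 CPM in tumours 1 to 3 and between 581 and 1193 CPM in the nodes, and tumour 1 had 1626 CPM of Col1a1 and 1673 CPM of Col3a1. The sum was led by collagens: 4 of the 9 markers rose (Col1a1, Col1a2, Col3a1 and Lum) and 5 fell (Pdgfra, Dcn, Fap, Ccl19 and Cxcl13), with a median log2 fold change of -1.11. The part of these cells in the Acta2 level was not tested.

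Des was at 8.76, 6.47 and 38.1 CPM in tumours 1 to 3 and at 68.7 CPM or more in the Foxp3Ctrl nodes. It fell by 2.16 ± 0.72 (SE, edgeR adjusted p = 0.0368). Tumour 3 stood above the other 2, and it also held skeletal muscle RNA: 8 skeletal muscle markers summed to 349.6 CPM there, against 4.18 and 5.08 CPM in tumours 1 and 2, with Acta1 at 113.5 and Myh1 at 105.8 CPM. Desmin is abundant in skeletal muscle, and its share from that tissue was not tested. Without tumour 3, Des fell by 3.34, with an adjusted p of 1.30e-05. The call was lost without Foxp3Ctrl node 1 (adjusted p = 0.0601), node 2 (0.0851), tumour 1 (0.136) or tumour 2 (0.0818), and with no filter on low counts (0.110).

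Cnn1 was at 2.77, 0.757 and 0.529 CPM in tumours 1 to 3, and its groups overlapped, with a log2 fold change of -0.04 ± 0.81 (SE, edgeR adjusted p = 0.970). Tumour 1 was the highest of the 9 libraries for Cnn1. The myoepithelial and basal markers summed to 5.91, 0.732 and 0.249 CPM in tumours 1 to 3, with Krt5, Krt14 and Krt17 at 0 in tumour 3. Lmod1 was at 2.61, 1.54 and 1.28 CPM, overlapped the nodes and had a log2 fold change of -0.35 ± 0.37 (SE, edgeR adjusted p = 0.419).

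**Figure D3:**
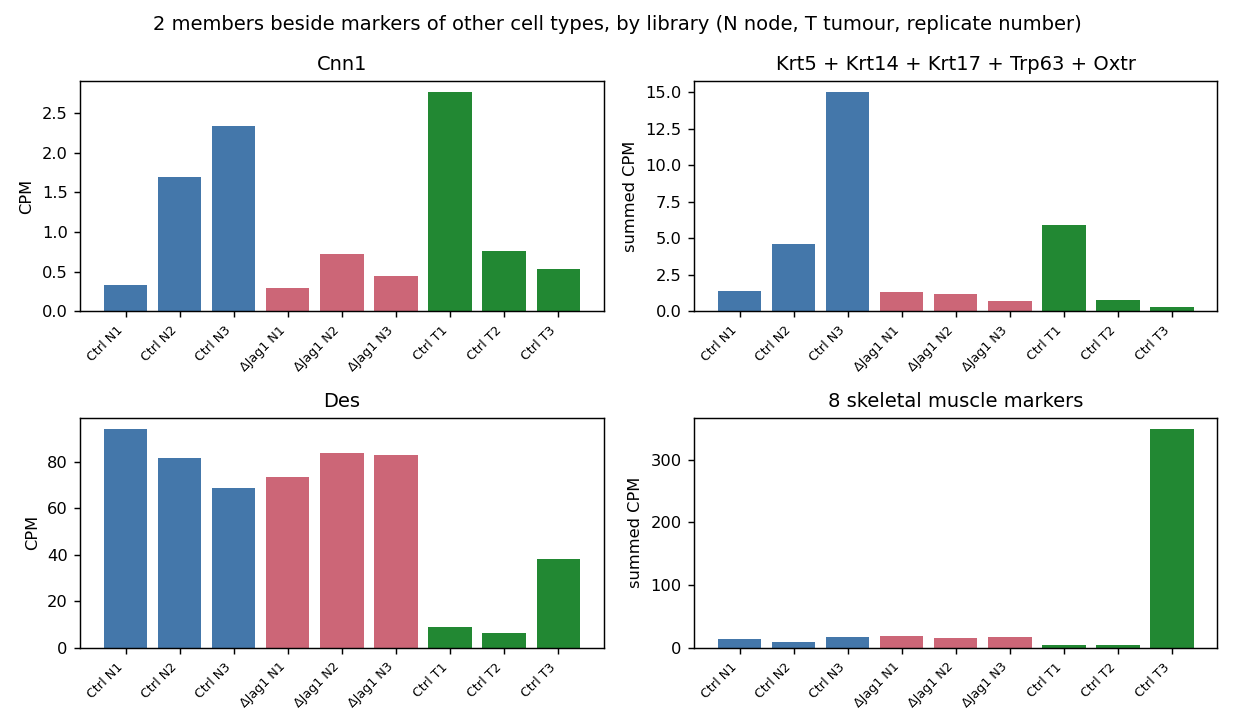
CPM of Cnn1 and Des (left) and summed CPM of marker genes (right) in each library, N for node and T for tumour, with bars from 0. Cnn1 is highest in Foxp3Ctrl nodes 2 and 3 and tumour 1, the same libraries in which the sum of the 5 myoepithelial and basal markers is highest. The same libraries, not drawn here, are also highest for the 5 luminal markers (32.4, 120.7 and 24.5 CPM) and for Lmod1 (2.88, 2.88 and 2.61 CPM). Des is highest among tumours in tumour 3, where 8 skeletal muscle markers sum to 349.6 CPM.

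Among the pericyte genes, both channel subunits fell. Abcc9 was at 17.3, 17.6 and 13.2 CPM in tumours 1 to 3, all below the lowest node, and fell by 1.84 ± 0.29 (SE, edgeR adjusted p = 0.000918). Kcnj8 was at 6.74, 10.1 and 4.76 CPM, also below every Foxp3Ctrl node, and fell by 1.33 ± 0.37 (SE, edgeR adjusted p = 0.0123). The ratio of Abcc9 to Kcnj8 per kb was 0.781, 0.530 and 0.843 in the tumours, below the range of the Foxp3Ctrl nodes. Rgs5 was at 86.9, 52.8 and 59.7 CPM, below the Foxp3Ctrl nodes, and fell by 0.85 ± 0.25 (SE, edgeR adjusted p = 0.0171). That call was lost without Foxp3Ctrl node 2 (adjusted p = 0.0556), tumour 2 (0.0597) or tumour 3 (0.0662), and with no filter on low counts (0.0582).

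Cspg4 moved the other way. It was at 14.3, 16.5 and 14.6 CPM in tumours 1 to 3, from 469 to 675 counts, against at most 2.11 CPM in any node, and rose by 3.17 ± 0.22 (SE, edgeR adjusted p = 7.55e-06). NG2 is also a surface proteoglycan of melanoma cells. The 5 pigment markers summed to between 16390 and 21780 CPM in tumours and to between 4.203 and 24.8 CPM in nodes, led by Dct and Pmel, and the 4 Schwann cell markers, led by Sox10 and S100b, to between 722.4 and 974.2 CPM in tumours and between 4.203 and 22.1 CPM in nodes. The part of tumour cells in the Cspg4 level was not tested.

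Because endothelium differed too, each gene was also set against the 8 blood endothelial markers of its own library, an added description chosen after the values were seen. Of these 8, 7 fell in tumours, Pecam1 by 2.91 ± 0.22 and Plvap by 1.96 ± 0.25 (SE) on the log2 scale. The 8 did not fall alike, with log2 fold changes between -2.91 and -0.43. Emcn, 1 of the 8, did not pass, at 11.1, 16.7 and 14.1 CPM in the Foxp3Ctrl nodes and 9.35, 12.2 and 8.34 CPM in the tumours. The geometric mean of the 8 was 20.2 ± 5.27 CPM in tumours against 60.5 ± 15.5 CPM in Foxp3Ctrl nodes (SD, n = 3 each). Relative to it, Myh11 was at 0.648 ± 0.141 in nodes and 0.616 ± 0.198 in tumours, and Tagln at 0.251 ± 0.102 and 0.2504 ± 0.0673 (SD, n = 3 each). The ranges also overlapped for Kcnj8, Abcc9, Rgs5, Des and Cnn1. Acta2 was at 0.606 ± 0.288 in nodes and 1.66 ± 0.751 in tumours, Lmod1 at 0.0406 ± 0.0158 and 0.0895 ± 0.0230, and Cspg4 at 0.0291 ± 0.00539 and 0.785 ± 0.220. For these 3 every tumour exceeded every Foxp3Ctrl node. Both the overlaps and these differences belong to the mean of these 8 unevenly changed markers, and no other marker set was tried.

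**Figure D4:**
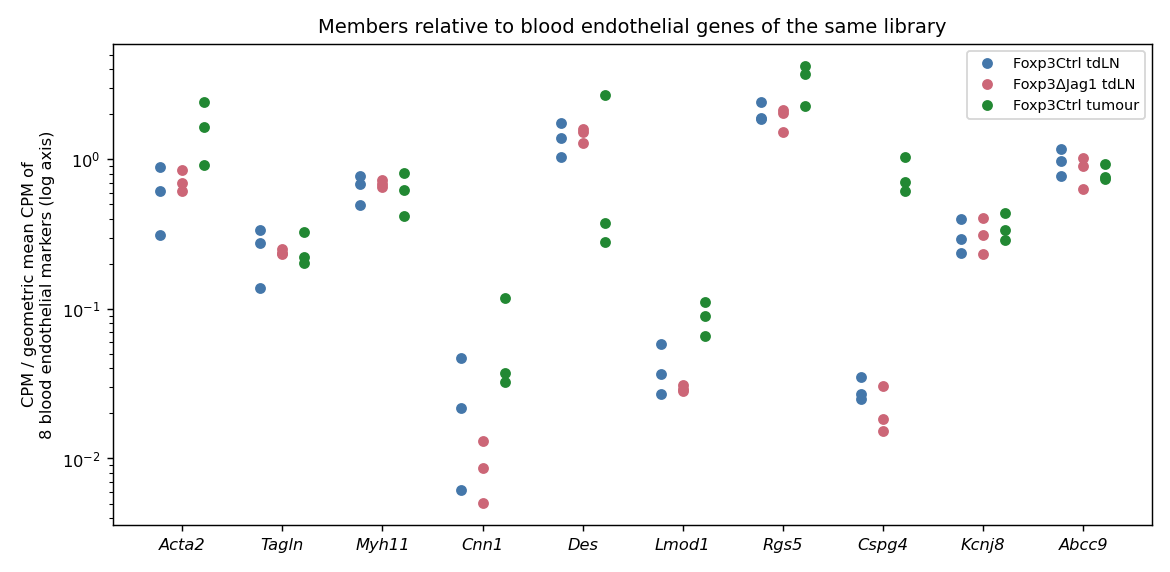
CPM of each gene divided by the geometric mean CPM of 8 blood endothelial markers of the same library, on a log axis, with 1 point per library. Tumours (green) overlap Foxp3Ctrl nodes (blue) for 7 genes and lie above them for Acta2, Lmod1 and Cspg4.

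Several non-muscle relatives of the contractile genes were more abundant per kb than the muscle forms. In Foxp3Ctrl nodes, Actb was at 2435 CPM per kb against 15.6 for Acta2, Tagln2 at 121 against 7.17 for Tagln, Myh9 at 139.6 against 4.97 for Myh11, and Cnn2 at 223.8 against 0.532 for Cnn1. Myh10 at 1.67 and Tagln3 at 0.247 CPM per kb lay below Myh11 and Tagln. In the node genotype comparison none of the 14 relatives tested was called, and none had an unadjusted p under 0.05. In tumours 6 of the 14 rose and 6 fell, beside 73.2% of all genes called. Those lower were Cnn2 by 2.63 ± 0.13, Rgs2 by 2.38 ± 0.16, Tagln2 by 1.51 ± 0.28, Myh10 by 1.36 ± 0.30, Myh9 by 1.01 ± 0.11 and Actb by 0.61 ± 0.13 (SE) on the log2 scale. Those higher were Cspg5, a neural proteoglycan, by 3.04 ± 0.23, Nes, an intermediate filament of progenitor cells, by 3.00 ± 0.24, Tagln3 by 1.88 ± 0.31, Vim by 1.58 ± 0.14, Cnn3 by 1.22 ± 0.08 and Actg1 by 0.68 ± 0.12 (SE). Rgs4 and Rgs16, with log2 fold changes of 0.03 ± 0.47 and -0.01 ± 0.20 (SE), did not pass. Actin genes share long stretches of near-identical coding sequence, so reads may be split between Acta2 and its relatives in ways the counts do not show.

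**Figure D5:**
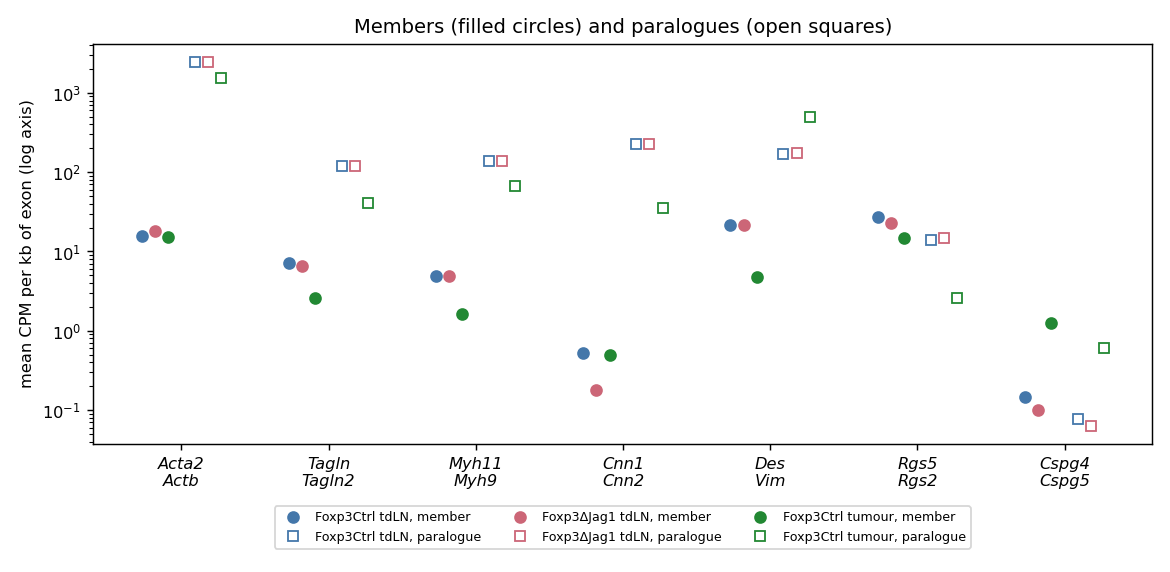
Mean CPM per kb of exon, on a log axis, for 7 of the genes (filled circles) and a relative of each (open squares), in Foxp3Ctrl nodes (blue), Foxp3ΔJag1 nodes (red) and Foxp3Ctrl tumours (green). Actb, Tagln2, Myh9, Cnn2 and Vim lie above their muscle partners in every group, and Rgs5 and Cspg4 lie above Rgs2 and Cspg5.

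Other contractile and pericyte genes changed in both directions between tissues. Of 21 other contractile genes tested, 7 rose and 9 fell, with a median of -0.33, where 35.6% of all genes rose and 37.6% fell. Csrp1, a LIM protein of smooth muscle, stood at 134.5 ± 10.01 CPM in nodes and rose to 695.3 ± 71.1 CPM in tumours (SD over 3 libraries), and its edgeR adjusted p was 1.71e-06. Of 18 other pericyte genes, 4 rose and 10 fell, with a median of -0.88. The share called in both lists was near the 73.2% of all genes. Vtn, the matrix protein vitronectin, fell by 5.15 ± 0.18 (SE), from 39.4 ± 5.03 to 1.07 ± 0.187 CPM, and Gucy1a1 fell by 1.98 ± 0.19 (SE). The 4 that rose, named after their values were seen, were Cd248, Mcam, Ndufa4l2 and Higd1b, with log2 fold changes of 3.45, 2.05, 1.49 and 1.36. Higd1b was low and its groups overlapped, at 0.248, 0.488 and 0.282 CPM in Foxp3Ctrl nodes and 0.826, 1.27 and 0.436 CPM in tumours. Which cells gave these rises, tumour cells included, was not tested. Pdgfrb, the PDGF-B receptor of pericytes, did not pass at 40.7 ± 11.4 and 35.5 ± 6.87 CPM, and the ratio of Rgs5 to Pdgfrb per kb was 3.69 ± 0.280 in Foxp3Ctrl nodes and 2.30 ± 0.614 in tumours, without overlap. This receptor and ratio were chosen after their values were seen.

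Of 9 smooth muscle regulators tested, 5 rose and 3 fell, against 73.2% of all genes called. Tbx2, a T-box repressor, rose by 6.23 ± 0.18 and Tead1, a factor that binds the MCAT core, by 2.75 ± 0.12 (SE) on the log2 scale. Srf, the factor that binds the CArG box, fell by 0.38 ± 0.11, and its coactivator gene Mrtfa by 1.54 ± 0.10 (SE). The related coactivator gene Mrtfb rose by 0.38 ± 0.11 (SE), and Myocd was too low to be tested. These last 4 were named for their role after the values were seen. Bulk RNA does not show in which cells any of these regulators changed, and this was not tested. Of 13 recruitment signals, 5 rose and 5 fell, a share near that of all genes. Tgfbr2, a TGF-beta receptor, fell by 1.86 ± 0.13 while Eng, the coreceptor endoglin, rose by 1.51 ± 0.15 (SE).

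Genes whose profile over the 9 libraries was most like that of Myh11 or Rgs5 were found among 13074 protein-coding genes by the root mean square difference of centred log2 CPM. For Myh11 the nearest were Tagln2 (0.0777), Psd3 (0.0818), Gas6 (0.114), Osmr (0.114) and Rem1 (0.116). Tagln2 was at 230.6 to 262.7 CPM in nodes and at 127, 63.9 and 64.7 CPM in tumours 1 to 3. Like Myh11, it was lower in every tumour than in every node and highest among tumours in tumour 1. For Rgs5 the nearest were Msrb3 (0.140), Gpr35 (0.143), Dkk2 (0.154), Myd88 (0.156) and Tlr2 (0.157). No other gene of the 10 was among the 5 nearest to either.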

How the data were processed

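Per the labels, RNA of whole nodes and tumours was sequenced in bulk. The authors deposited raw counts per gene, whole numbers with no normalization, in a node and a tumour table. The submitters' processing notes list STAR 2.5.2b, Trimmomatic 0.36, Subread 1.5.2 and its featureCounts, and the build GRCm38. Which annotation and which strand mode they used is not given in the sources used here. Of 49315 identifiers, 48970 matched GENCODE M21 for symbols, positions and exon lengths. A further 3 columns match no labelled sample and were not used. Total counts were 32117478 to 44540888 per library. Replicates differed by more than sampling noise (chi-square per degree of freedom 17.1 to 75.4).

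The counts entered edgeR's quasi-likelihood F-test (edgeR 4.0.16, R 4.3.3, TMM, filterByExpr, robust, Benjamini-Hochberg over all genes tested, FDR 0.05), each comparison fitted alone without a block, and the code was tested on simulated counts. CPM scales by a library's total counts. Alternatives were other size factors, DESeq2 1.42.0, limma-voom (limma 3.58.1), other filters, non-robust dispersion, a replicate block, a joint fit of the 9 libraries and leaving out each library. Library names give node and tumour the same mouse, which pairs them, and deviations of same-mouse libraries correlated at -0.083, 0.126 and -0.00381. Nodes of the genotypes share only numbers.

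The 10 genes and all lists were chosen with earlier results of these data known. Named beside them were the 2 genes of smallest p per list and comparison, the relatives with a mean of at least 1 CPM in a group, the leading markers, and the 5 genes nearest to Myh11 and Rgs5 (prior count 2, mean CPM of at least 1). A listed gene that this rule names is not reported here. Others are marked as chosen after their values were seen, or belong to a marker list that is spelled out.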

Additional observations from a re-analysis of the deposited data

How the results depend on the processing

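In the node genotype comparison none of the 10 genes was called under any alternative run, and Cnn1 was too low to be tested when genes had to reach 1 CPM in 3 libraries. The number of all genes called there was 7, and it was 44 with DESeq2, 16 with no filter on low counts and 11 with the replicate block. Leaving out single libraries it lay between 6 and 21, with 21 without Foxp3Ctrl node 3 and 16 without Foxp3ΔJag1 node 2. The cause was not tested. Of the DESeq2 calls 20 were higher and 24 lower, against 6 and 1, and with the block 6 were higher and 5 lower. With single libraries left out, the log2 fold change crossed 0 for Tagln (-0.29 to 0.079), Myh11 (-0.046 to 0.0092), Des (-0.18 to 0.070) and Kcnj8 (-0.40 to 0.056). In the tumour comparison the 7 calls were the same genes under the block and every other alternative except no filter, which left 5, and single left-out libraries, which left 5 to 7, of which 4 to 6 were lower. Abcc9, Cspg4, Kcnj8, Myh11 and Tagln were called in all of these. Acta2 reversed to -0.029 with library size only, -0.052 with limma-voom, -0.011 with the CPM filter and -0.063 with the replicate block, and Cnn1 to 0.0062 in the joint fit. Leaving out libraries, Acta2 lay between -0.54 and 0.35 and Cnn1 between -1.07 and 0.40. Leaving out 1 library gives an arm of 2. Library size only moved the median of all genes from -0.05 to -0.11. The node genotypes share only replicate numbers, with correlations of -0.165, 0.0336 and -0.124, and the block called none of the 10 genes there. Depth limits Cnn1, Lmod1 and Cspg4 in nodes, at 11 to 124 counts.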
